A study of Mus musculus with 12 samples.

Results

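Sox1, Nes, Tubb3, En2, Map2 and Six3 are 6 genes used as markers of neuroectoderm, the germ layer that forms brain and spinal cord. They were chosen by symbol from the deposited expression matrices of a mouse cell culture study and linked by Ensembl ID to the count files, so they are 6 of the 21728 genes listed in any library. The study measured mRNA in epiblast-like cells (EpiLCs), which resemble the epiblast before gastrulation, and in primordial germ cell-like cells (PGCLCs), which are made from EpiLCs in aggregates and resemble early germ cell precursors. Its question was what bisphenol A (BPA), a plasticiser with oestrogen-like activity, does to gene expression at both stages. There were 4 groups of 3 libraries. PGCLCs of the BPA arm (BPA PGCLCs) and untreated PGCLCs were taken at day 5 and sorted for both reporters. BPA EpiLCs had 100 nM BPA in the medium for 24 h, added 24 h after seeding, and untreated EpiLCs were labelled as water controls. All groups came from C57BL/6 embryonic stem cells with the reporters Blimp1-mVenus and Stella-ECFP (BVSC), which mark expression of Prdm1 and Dppa3, and all spent 48 h in EpiLC culture. The labels leave unstated if the PGCLC medium held BPA too.

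In the mouse embryo, anterior epiblast shielded from BMP, Nodal and Wnt signals becomes neural plate, while epiblast that receives BMP signals can give rise to germ cell precursors. The neural plate switches on Sox1 as it forms. Regional transcription factors such as Six3 (forebrain and eye) and En2 (midbrain and anterior hindbrain) then divide it. Dividing progenitors build nestin filaments. Neurons leaving the cell cycle build neuronal tubulin into their microtubules, which MAP2 stabilises. None of the 6 genes is restricted to the nervous system throughout life, and low transcript levels of several occur in pluripotent cells.

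All 6 are protein-coding genes on the plus strand (GENCODE M21, mm10). Sox1 (ENSMUSG00000096014, chr8:12395295-12400126), Six3 (ENSMUSG00000038805, chr17:85613608-85629302) and En2 (ENSMUSG00000039095, chr5:28165694-28172166) encode transcription factors. Nes (ENSMUSG00000004891, chr3:87971078-87980451) encodes the intermediate filament protein nestin, Tubb3 (ENSMUSG00000062380, chr8:123411424-123422015) encodes class III beta-tubulin, and Map2 (ENSMUSG00000015222, chr1:66175273-66442583) encodes a dendritic microtubule-associated protein.

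RefSeq promoters (GRCm38.p6, the bases 250 before to 50 after the start) were found for 5 of the 6, all but En2. Those of Sox1, the gene with the largest fall between stages, Tubb3, the gene called under BPA, and Six3, the gene listed in PGCLC libraries alone, are printed 5′ to 3′. Capitals mark the octamer ATGCAAAT bound by POU factors such as OCT4, or the SOX core CATTGT.
Sox1 promoter, chr8:12395269-12395568, plus strand: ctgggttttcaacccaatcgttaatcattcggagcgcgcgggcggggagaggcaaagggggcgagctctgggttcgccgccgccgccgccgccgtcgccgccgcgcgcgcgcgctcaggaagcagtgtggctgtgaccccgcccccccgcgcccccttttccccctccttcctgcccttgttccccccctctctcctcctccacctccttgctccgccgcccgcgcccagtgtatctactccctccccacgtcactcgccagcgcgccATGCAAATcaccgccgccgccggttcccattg
Tubb3 promoter, chr8:123411303-123411602, plus strand: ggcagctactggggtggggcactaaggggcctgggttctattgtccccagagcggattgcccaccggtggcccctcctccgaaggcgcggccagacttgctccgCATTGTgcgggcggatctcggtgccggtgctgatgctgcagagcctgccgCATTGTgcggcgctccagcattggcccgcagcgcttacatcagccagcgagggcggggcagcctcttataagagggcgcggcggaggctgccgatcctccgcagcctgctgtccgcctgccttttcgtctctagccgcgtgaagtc
Six3 promoter, chr17:85620584-85620883, plus strand: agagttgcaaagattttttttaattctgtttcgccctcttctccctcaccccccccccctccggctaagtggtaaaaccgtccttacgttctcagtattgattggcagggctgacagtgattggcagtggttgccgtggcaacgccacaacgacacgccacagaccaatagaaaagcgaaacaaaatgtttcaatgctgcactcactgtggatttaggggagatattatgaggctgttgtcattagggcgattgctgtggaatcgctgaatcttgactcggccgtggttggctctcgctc
Both strands were searched for 5 motifs. The Sox1 window held 1 octamer, a motif present in 1.74% of 32851 promoters of this length. The Tubb3 window held the SOX core 2 times, and 12.6% of all promoters held it at least once. The GC box GGGCGG (35.7% of all promoters) had 3 matches in the Sox1 window, 2 in Tubb3 and none in Six3, and neither TATAAA (13.6%) nor TTCAGCACC, the left part of the RE1 site of the neural repressor REST (0.371%), was found in any of the 5 windows. The Sox1 window was 70.7% G and C with a CpG ratio of 1.07, higher than in 97.0% of promoters, while the Six3 window was 50% G and C, against a median of 52.7% over all promoters. The RefSeq starts of all 5 windows lie inside the GENCODE gene spans, which begin upstream of them. The GENCODE span of Sox1 begins at 12395295, near the 5′ end of its window, and the octamer lies inside that span.

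Counts assigned to genes were 30375633 to 34309195 per PGCLC library and 11785338 to 22029195 per EpiLC library, and the files list no gene under 10 counts. An unlisted gene therefore lies at or under 9 counts, a limit of 0.254 to 0.740 CPM, the reads of a gene scaled to a common TMM-adjusted total, highest in the shallowest EpiLC libraries. Libraries of 2 groups stood apart from their replicates: BPA PGCLC replicate 3 lay at 18.1 on the first principal component of its stage (40.0 and 41.1 in replicates 1 and 2), and untreated EpiLC replicate 3 lay at 58.5 (-19.1 to -3.27 in the other EpiLC libraries) with 12.9% of counts in ribosomal protein genes (7.56% to 8.52% in the others). Germ cell markers separated the stages as labelled, with all 6 higher in untreated PGCLCs than in untreated EpiLCs. In that comparison 8 of 8 endoderm, 6 of 7 trophoblast and 4 of 6 mesoderm markers tested were higher too, beside 30.4% of all genes. Of 6 EpiLC markers 3 were lower and 1, Otx2, was higher. Levels below are CPM of the TMM-scaled library in replicates 1, 2 and 3, means are ± SD, log2 differences are ± SE of the fit, and n is 3 libraries per group. Nothing in the labels ties the replicates to separate cultures, and a p-value here reflects only how far these libraries spread. In bulk RNA, fewer cells of a type and less RNA per cell cannot be told apart.

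Between stages, 5 of the 6 genes differed in untreated cells. Sox1, Nes, Tubb3 and En2 were lower in PGCLCs, Sox1 by 10.4-fold and the other 3 by 1.29- to 2.39-fold, and Six3 was listed in PGCLC libraries alone. By the edgeR quasi-likelihood test with Benjamini-Hochberg adjustment, 55.6% of 17608 genes tested were called in this comparison, 25.2% lower and 30.4% higher in PGCLCs. The members' 4 of 6 lower and 1 of 6 higher are read against these shares, for genes chosen with results of these data known. In the BPA arm 5 were lower and 1 was higher, and 57.5% of all genes were called, 25% lower and 32.5% higher. With unlisted values as 0, all 3 libraries of one stage lay beyond all 3 of the other for the same 5 genes in untreated cells. This held for 28.2% (lower) and 32.1% (higher) of all genes. In the BPA arm it held for all 6 genes, and for 32.7% (lower) and 40.5% (higher) of all genes. For Six3 the separation rests on the 0 and is not shown in either arm. Untreated PGCLC replicate 3 (0.541 CPM) lies under the 9-count limit of untreated EpiLC replicate 3 (0.626 CPM). BPA PGCLC replicate 1 (0.682 CPM) lies under that of BPA EpiLC replicate 2 (0.740 CPM). The median log2 difference of the 6 genes was -0.50 in untreated cells and -1.08 in the BPA arm, beside 0.07 and 0.13 over all genes tested (the members' medians are the same, and those of all genes 0 and 0.03, with unlisted genes at their bound). Without untreated EpiLC replicate 3 the untreated calls of Sox1 (-3.31), Nes (-0.66), Tubb3 (-0.38) and Six3 were kept, and without BPA PGCLC replicate 3 all 6 calls of the BPA arm. Culture, aggregation, the reporter sort and the naming scheme of the libraries changed together with the stage, and their parts cannot be told apart.

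**Figure D1:**
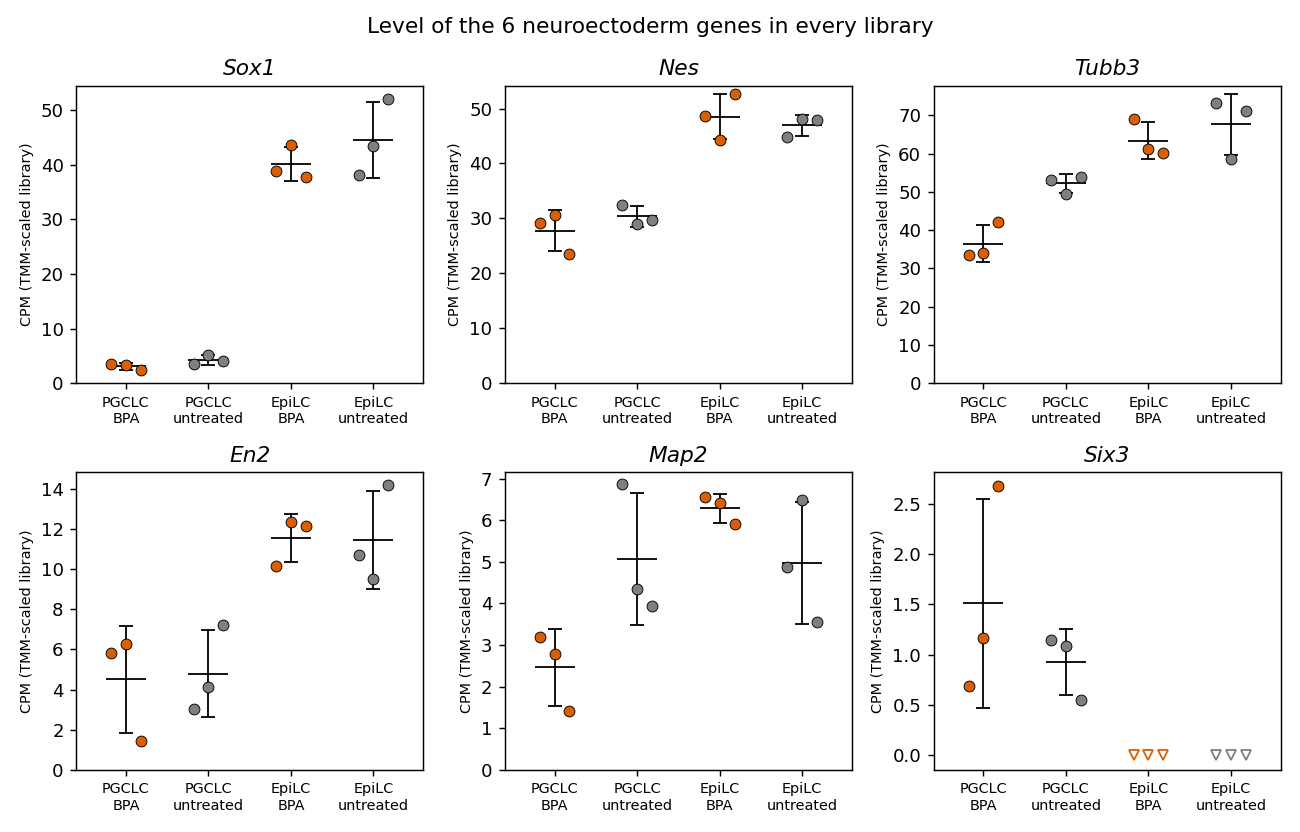
CPM of each gene in every library (points, replicates 1 to 3 from left to right), with group mean and SD (bars). Open triangles at 0 mark libraries that do not list the gene. Sox1 lies between 2.40 and 5.19 CPM in the 6 PGCLC libraries and between 37.7 and 52.0 CPM in the 6 EpiLC libraries, and Six3 is listed in PGCLC libraries alone.

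Sox1, the earliest of the 6 in neural plate formation, had 3.54, 3.32 and 2.40 CPM in BPA PGCLCs and 3.57, 5.19 and 4.01 CPM in untreated PGCLCs. It had 38.9, 43.7 and 37.7 CPM in BPA EpiLCs and 38.2, 43.4 and 52.0 CPM in untreated EpiLCs. Every EpiLC library lay above every PGCLC library. Its log2 difference between PGCLCs and EpiLCs was -3.38 ± 0.19 in untreated cells (adjusted p = 5.97e-08) and -3.70 ± 0.20 in the BPA arm (adjusted p = 3.28e-08). Relative to its length, Sox1 fell to 0.639 and 0.881 CPM per kilobase of exon in BPA and untreated PGCLCs, against 8.30 and 9.22 in BPA and untreated EpiLCs. That placed it at the 27.3 percentile of listed coding genes in untreated PGCLCs and at the 66.4 percentile in untreated EpiLCs.

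Six3, a forebrain and eye homeobox gene, was the 1 member that ran the other way. It had 0.682, 1.16 and 2.69 CPM in BPA PGCLCs (21, 35 and 95 counts) and 1.15, 1.09 and 0.541 CPM in untreated PGCLCs (36, 35 and 17 counts), and no EpiLC library of either arm listed it. With unlisted values as 0 the stage difference was called in the BPA arm (adjusted p = 0.00198) and in untreated cells (adjusted p = 0.00291), and with unlisted values as 9 counts the call in untreated cells was lost (adjusted p = 0.0909). Set against 9 counts per EpiLC library, the mean level was at least 2.75-fold higher in BPA PGCLCs than in BPA EpiLCs and at least 1.93-fold higher in untreated PGCLCs than in untreated EpiLCs, bounds that carry no test of their own. Its antisense neighbour Six3os1 overlaps 106 exon bases and had at most 31 counts, in 4 libraries. No source used here states how the counting treated strand, and in those bases reads of the pair cannot be told apart.

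En2, an engrailed homeobox gene of the midbrain and hindbrain, had 5.82, 6.25 and 1.44 CPM in BPA PGCLCs and 3.03, 4.10 and 7.23 CPM in untreated PGCLCs. In BPA EpiLCs it had 10.2, 12.3 and 12.2 CPM, and in untreated EpiLCs 10.7, 9.51 and 14.2 CPM. It was lower in all PGCLC libraries than in all EpiLC libraries, and its coefficient of variation was 59.1% in BPA PGCLCs and 45.6% in untreated PGCLCs, against 10.5% in BPA EpiLCs and 21.2% in untreated EpiLCs. The log2 stage difference was -1.26 ± 0.45 in untreated cells (adjusted p = 0.0322) and -1.36 ± 0.45 in the BPA arm (adjusted p = 0.0220). The untreated call was lost without any one of untreated EpiLC replicates 1 and 3 and untreated PGCLC replicates 1 and 2 (adjusted p 0.0571 to 0.111), and the call in the BPA arm without BPA EpiLC replicate 2 or 3 (adjusted p 0.0530 and 0.0573).

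Nes, the progenitor filament gene, had 29.1, 30.6 and 23.5 CPM in BPA PGCLCs and 32.5, 28.9 and 29.7 CPM in untreated PGCLCs. EpiLCs had 48.7, 44.3 and 52.6 CPM with BPA and 44.8, 48.0 and 48.0 CPM untreated. The stages did not overlap, and the spread within each group was small (coefficient of variation 3.98% to 13.4%). The log2 stage difference was -0.63 ± 0.12 in untreated cells (adjusted p = 0.000798) and -0.81 ± 0.12 in the BPA arm (adjusted p = 0.00011).

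Tubb3, the neuronal beta-tubulin gene, had 33.4, 33.9 and 42.0 CPM in BPA PGCLCs and 53.2, 49.5 and 54.0 CPM in untreated PGCLCs. It had 69.0, 61.1 and 60.1 CPM in BPA EpiLCs and 73.1, 58.6 and 71.2 CPM in untreated EpiLCs. The 4 groups formed 3 levels, with BPA PGCLCs lowest, untreated PGCLCs between, and the EpiLC groups highest and overlapping each other. Its log2 stage difference was -0.37 ± 0.12 in untreated cells (adjusted p = 0.0217) and -0.80 ± 0.12 in the BPA arm (adjusted p = 0.000161). The untreated call was lost without untreated EpiLC replicate 1 (adjusted p = 0.0885) or untreated PGCLC replicate 2 (adjusted p = 0.0685), and with unlisted genes as 9 counts (adjusted p = 0.0508).

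Map2, the dendritic microtubule-associated protein gene, had 3.18, 2.79 and 1.41 CPM in BPA PGCLCs and 6.88, 4.35 and 3.95 CPM in untreated PGCLCs. It had 6.57, 6.42 and 5.90 CPM in BPA EpiLCs and 4.89, 6.49 and 3.55 CPM in untreated EpiLCs. BPA PGCLCs were lowest and did not overlap any other group, whereas untreated PGCLCs overlapped both EpiLC groups. The log2 stage difference was 0.02 ± 0.33 in untreated cells (adjusted p = 0.974, 95% interval -0.69 to 0.73) and -1.35 ± 0.34 in the BPA arm (adjusted p = 0.00444). In untreated cells its sign turned under other scalings (-0.05 with RLE factors).

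Compared per kilobase of exon, Tubb3 was the highest of the 6 in every group. It averaged 19.5 ± 2.59 CPM per kilobase in BPA PGCLCs, 28.0 ± 1.29 in untreated PGCLCs, 33.9 ± 2.60 in BPA EpiLCs and 36.2 ± 4.22 in untreated EpiLCs. In both PGCLC groups Nes came next, with 4.32 ± 0.580 in BPA and 4.73 ± 0.291 in untreated PGCLCs. En2 (1.27 ± 0.752 in BPA and 1.35 ± 0.617 in untreated PGCLCs) and Sox1 followed and did not differ beyond their spread in either group. Map2 (0.150 ± 0.0565 in BPA and 0.308 ± 0.0966 in untreated PGCLCs) and Six3 (0.277 ± 0.192 in BPA and 0.170 ± 0.0613 in untreated PGCLCs) were lowest, and they overlapped in BPA PGCLCs. In both EpiLC groups the order was Tubb3, Sox1, Nes, En2 and Map2. Sox1 and Nes (7.56 ± 0.645 in BPA and 7.31 ± 0.291 in untreated EpiLCs) overlapped in BPA EpiLCs, while En2 (3.26 ± 0.342 in BPA and 3.24 ± 0.688 in untreated EpiLCs) and Map2 (0.383 ± 0.0212 in BPA and 0.302 ± 0.0896 in untreated EpiLCs) lay apart from them. Among listed coding genes, Tubb3 stood at the 81.7 percentile in BPA PGCLCs, the 88.2 in untreated PGCLCs, the 89.2 in BPA EpiLCs and the 89.7 in untreated EpiLCs.

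Under BPA, Tubb3 fell in PGCLCs and none of the 6 was called in EpiLCs. These comparisons share their libraries with the stage comparisons. Tubb3 averaged 36.4 ± 4.85 CPM in BPA PGCLCs and 52.2 ± 2.41 CPM in untreated PGCLCs, a log2 difference of -0.51 ± 0.11 or 1.42-fold lower (adjusted p = 0.0226, edgeR quasi-likelihood with Benjamini-Hochberg). In this comparison 13.9% of 16753 genes were called, 8.13% higher and 5.72% lower, so 1 of 6 is near the background share. The call was kept without BPA replicate 3 (log2 difference -0.62, adjusted p = 0.00400) and lost without any one of BPA replicates 1 and 2 and untreated replicates 1, 2 and 3 (-0.55 to -0.45, adjusted p 0.0597 to 0.116). All 3 BPA libraries lay below all 3 untreated libraries for Sox1, Tubb3 and Map2, and 17.3% of all genes tested did so (17.9% the other way). Sox1 averaged 3.09 ± 0.605 CPM in BPA PGCLCs and 4.26 ± 0.840 CPM in untreated PGCLCs (log2 difference -0.45 ± 0.28, adjusted p = 0.354, and -0.29 without BPA replicate 3). Map2 averaged 2.46 ± 0.930 CPM in BPA PGCLCs and 5.06 ± 1.59 CPM in untreated PGCLCs (-1.03 ± 0.38, 95% interval -1.90 to -0.15, adjusted p = 0.114, and -0.74 without BPA replicate 3).

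The other 3 members overlapped between BPA and untreated PGCLCs. Nes had a log2 difference of -0.12 ± 0.13 (adjusted p = 0.642), with a 95% interval of -0.42 to 0.18. En2 had -0.08 ± 0.55 (adjusted p = 0.953), and its sign turned without BPA replicate 3 (0.35), the library with its lowest level, or without untreated replicate 3 (0.33), the library with its highest. Six3 had 0.71 ± 0.70 (adjusted p = 0.593), with its highest level in BPA replicate 3, and 0.01 without that library. The 95% intervals of En2 (-1.33 to 1.18) and Six3 (-0.90 to 2.33) are wide. They do not exclude a 2-fold difference of En2 in either direction or a 2-fold rise of Six3.

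**Figure D2:**
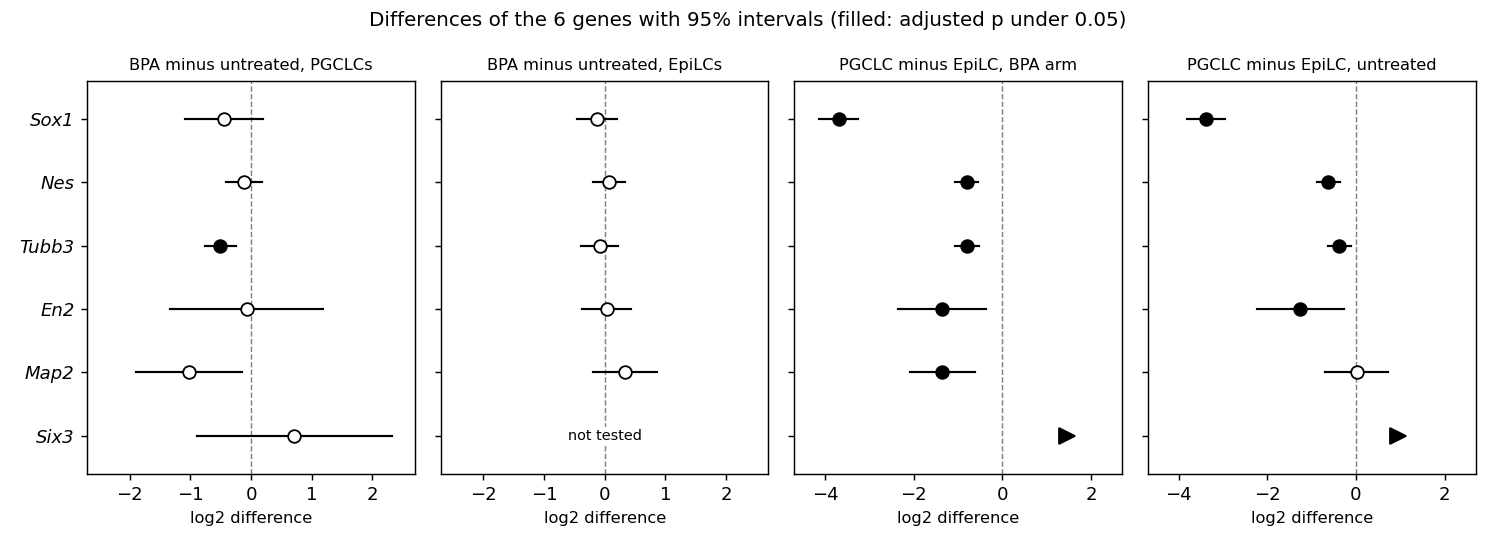
Log2 difference of each gene in 4 comparisons, with 95% intervals; filled symbols have an adjusted p under 0.05 and the triangles for Six3 are lower bounds. Sox1 reads -3.70 and -3.38 between stages, and Tubb3 (-0.51) is the 1 filled symbol among the BPA differences.

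In EpiLCs BPA and untreated libraries overlapped for all 5 listed members. The log2 differences were -0.13 ± 0.14 (Sox1), 0.07 ± 0.11 (Nes), -0.08 ± 0.13 (Tubb3), 0.03 ± 0.17 (En2) and 0.34 ± 0.22 (Map2), with adjusted p of 0.943 to 0.976. The 95% intervals of Sox1 (-0.46 to 0.20), Nes (-0.20 to 0.33), Tubb3 (-0.38 to 0.23) and En2 (-0.37 to 0.44) exclude a change of 2-fold, as does that of Map2 (-0.19 to 0.87). Six3 was not tested. By edgeR 0 of 15252 genes were called (0%), 118 had an unadjusted p under 0.05, DESeq2 called 16 genes and limma voom 0, and no member was among the calls of any tool. Of all genes, 3.53% had every BPA library below every untreated library and 2.5% had every one above.

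The difference between the BPA effects of the stages (PGCLCs minus EpiLCs) was not called for any of the 5 members that could be fitted. It was -1.37 ± 0.47 for Map2 (unadjusted p = 0.0126, adjusted p = 0.197) and -0.43 ± 0.17 for Tubb3 (unadjusted p = 0.0304, adjusted p = 0.296). For Sox1 it was -0.32 ± 0.26, for Nes -0.18 ± 0.17 and for En2 -0.11 ± 0.63 (adjusted p of 0.690 to 1.00). Of all genes 1.32% were called, 1.01% with the more positive and 0.312% with the more negative effect in PGCLCs. The BPA effects of Tubb3 and Map2 are thus not shown to differ between stages.

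The other beta-tubulin genes were read beside Tubb3. Beta-tubulins pair with alpha-tubulins to form microtubules. In PGCLCs 5 of the 6 that were tested were called lower with BPA, beside 5.72% of all genes called lower and 8.13% higher. The median log2 difference was -0.69 over the 6, beside 0.01 over all genes. Tubb2b, the isotype abundant in developing neurons, had 90.5, 88.4 and 98.3 CPM in BPA PGCLCs and 170, 170 and 156 CPM in untreated PGCLCs (-0.83 ± 0.07, adjusted p = 0.000823). Tubb2a (-0.82 ± 0.20, adjusted p = 0.0329), Tubb6 (-0.57 ± 0.08, adjusted p = 0.0055) and Tubb4b (-0.38 ± 0.05, adjusted p = 0.00418) fell as well. Tubb5, the major tubulin of dividing cells, fell by 0.19 ± 0.05 to 2353 ± 169 CPM in BPA PGCLCs, against 2710 ± 70.7 CPM in untreated PGCLCs (adjusted p = 0.0434). Tubb4a had -0.89 ± 0.29 (adjusted p = 0.0764). Without any one of the BPA libraries 1 and 2 or the 3 untreated libraries, 3 of them were called lower, and 5 without BPA replicate 3. In EpiLCs 0 of 6 were called, with log2 differences of -0.12 to 0.16, where 0 of all 15252 genes tested were called. The difference between stages was called for Tubb2b (-0.74 ± 0.16, adjusted p = 0.0445). That call was kept without untreated EpiLC replicate 3 or BPA PGCLC replicate 3 and lost without any other library (adjusted p 0.0614 to 0.154), with RLE factors and with the replicate block. The list was chosen with earlier results of these data known.

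**Figure D3:**
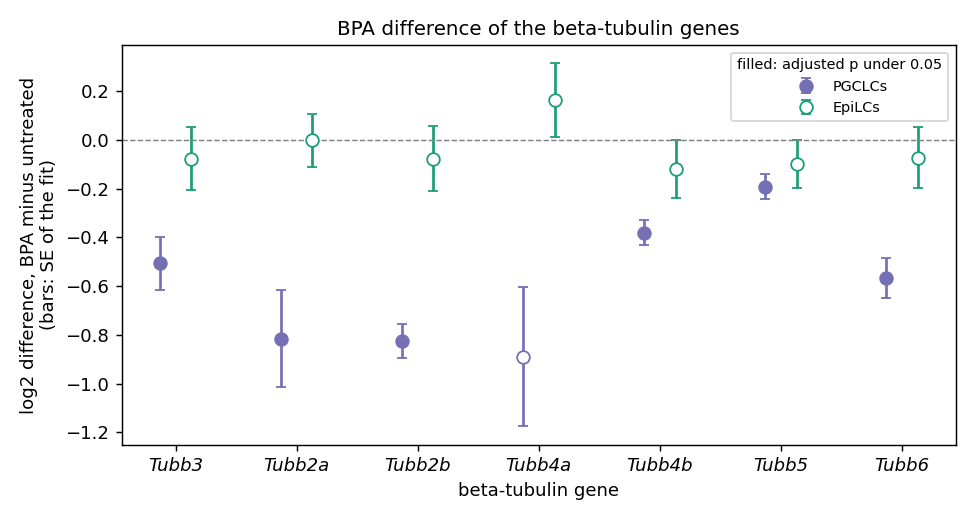
Log2 difference between BPA and untreated libraries for Tubb3 and the other tested beta-tubulin genes in PGCLCs (left of each pair) and EpiLCs (right), with SE; filled symbols have an adjusted p under 0.05. In PGCLCs the 7 genes lie between -0.89 and -0.19, and in EpiLCs between -0.12 and 0.16.

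Of the other neural lists in PGCLCs some genes were called under BPA, where 8.13% of all genes were called higher and 5.72% lower. Of 16 neural plate transcription factors tested, 2 fell and none rose, with Sox2, also expressed in pluripotent cells, at -0.29 ± 0.07 (adjusted p = 0.0288). Of 7 progenitor genes the intermediate filament gene Vim fell (-1.04 ± 0.13, adjusted p = 0.00359), at 71.0 ± 13.3 CPM in BPA PGCLCs and 147 ± 14.8 CPM in untreated PGCLCs. Of 9 neuron genes the microtubule-destabilising Stmn2 fell (-0.96 ± 0.11, adjusted p = 0.00259). Of 6 microtubule-associated protein genes Mapt, which encodes tau, fell (-0.69 ± 0.15, adjusted p = 0.0230). Among 4 proneural genes Neurog1, a neurogenesis factor, was called higher with unlisted values as 0 (adjusted p = 0.0237). It was listed in all 3 BPA PGCLC libraries (1.08 ± 0.247 CPM) and in no other library of the 4 groups. Set against 9 counts per untreated PGCLC library, its mean was at least 3.81-fold higher in BPA PGCLCs, a bound without a test of its own. None of 6 neural tube patterning genes and none of 4 other Six genes was called, with Irx3 at 0.31 ± 0.22 (adjusted p = 0.425) and Six5 at 0.15 ± 0.21 (adjusted p = 0.729). Vim and Stmn2 kept their calls without any one library. Mapt lost its call without any one library but BPA replicate 3 (adjusted p 0.0692 to 0.113), Sox2 without BPA replicates 1 or 2 or untreated replicates 1 or 3 (0.0797 to 0.125), and Neurog1 without BPA replicates 1 or 2 or untreated replicate 3 (0.0523 to 0.134). In EpiLCs none of these lists held a called gene, the proneural gene Neurod1 having the smallest p over these lists (0.65 ± 0.30, adjusted p = 0.943).

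Beside these changes, markers of other cell types moved in the same PGCLC libraries, read against 8.13% of all genes called higher and 5.72% lower. Of 8 endoderm markers tested 4 rose with BPA (7 without BPA replicate 3), among them the yolk sac and liver gene Afp (6.01 ± 0.35, adjusted p = 0.000206), and the summed level of the 9 markers was 2596 to 5561 CPM in BPA PGCLCs and 588 to 919 CPM in untreated PGCLCs, with BPA replicate 3 the lowest of its group. Of 6 germ cell markers 3 fell, such as Prdm14 (-0.63 ± 0.09, adjusted p = 0.00545), and their sum was 589 to 650 CPM in BPA PGCLCs and 703 to 817 CPM in untreated PGCLCs. Trophoblast markers summed to 312 to 412 CPM in BPA PGCLCs and 241 to 291 CPM in untreated PGCLCs, with 2 higher and 1 lower of 7, and mesoderm markers to 140 to 176 CPM in BPA PGCLCs and 121 to 155 CPM in untreated PGCLCs, with 1 higher and 1 lower of 5 and Mesp1 unlisted throughout. The part of these in the Tubb3 and tubulin differences was not tested; the Tubb3 difference is larger (-0.62) without BPA replicate 3, the library with the lowest endoderm sum of its group. Of the 12 neuron genes, Dcx was listed in 1 BPA PGCLC library (1.24 CPM) and 0 untreated ones, Rbfox3 in 1 library of each group, and Snap25 in 0 BPA and 1 untreated library. Elavl3 (4.59 CPM in BPA and 6.16 CPM in untreated PGCLCs), Elavl4, Gap43 and Nefm were listed in every PGCLC library. The 12 neuron genes summed to 94.8 to 113 CPM in BPA PGCLCs and 136 to 147 CPM in untreated PGCLCs, with Ina (45.2 ± 7.23 CPM in BPA and 46.9 ± 7.21 CPM in untreated PGCLCs), Stmn2 (27.3 ± 0.200 CPM in BPA and 53.4 ± 6.56 CPM in untreated PGCLCs) and Ncam1 (16.1 ± 0.747 CPM in BPA and 17.8 ± 2.76 CPM in untreated PGCLCs) the highest.

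Between stages, the neural lists did not move together in untreated cells, where 30.4% of all genes were called higher and 25.2% lower in PGCLCs. Of 18 neural plate transcription factors tested 9 were higher and 3 lower in PGCLCs (median log2 difference 1.59, or 0.68 with genes unlisted in a group at their bound). Sox2, a gene of pluripotent cells and the neural plate, averaged 451 ± 39.5 CPM in untreated PGCLCs and 33.0 ± 5.38 CPM in untreated EpiLCs. Its log2 difference was 3.78 ± 0.12 (adjusted p = 9.31e-10), opposite to Sox1. The head gene Otx2 (2.75 ± 0.15, adjusted p = 3.3e-08) and Zic2 (1.12 ± 0.11, adjusted p = 4.19e-06) were higher too, while the hindbrain gene Gbx2 was lower (-3.23 ± 0.30, adjusted p = 3.42e-06). Of 7 patterning genes 3 were higher, such as Lmx1b (2.76 ± 0.29, adjusted p = 7.85e-06). Their median log2 difference was 1.53, or 0 with genes unlisted in a group at their bound. En1, the paralog of En2 and 1 of the 3, was listed in 2 of 3 untreated PGCLC libraries and no EpiLC library. Its bound was 1.02-fold, and with unlisted genes as 9 counts 2 patterning genes were called. Of 7 progenitor genes 3 were higher, led by Vim (1.56 ± 0.18, adjusted p = 1.55e-05), opposite to Nes.

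Proneural, neuron and tubulin genes held calls in untreated PGCLCs that are read beside the 25.2% lower and 30.4% higher of all genes. Of 4 proneural genes Insm1 (-3.54 ± 0.74, adjusted p = 0.00165) and Dll1 (-2.85 ± 0.79, adjusted p = 0.0089) were lower. Of 11 neuron genes 4 were lower, among them the RNA-binding protein gene Elavl3 (-2.09 ± 0.14, adjusted p = 2.61e-07), the filament gene Ina (-1.08 ± 0.13, adjusted p = 2.94e-05) and the neurofilament gene Nefl (-3.46 ± 0.69, adjusted p = 0.00121), and the adhesion gene Ncam1 was higher (2.34 ± 0.17, adjusted p = 5.37e-07). Of 6 other beta-tubulin genes 3 were lower, led by Tubb6 (-1.02 ± 0.11, adjusted p = 1.01e-05). Other microtubule-associated protein genes went mainly the other way, with 4 of 6 higher, such as Mapt at 28.8 ± 0.194 CPM in untreated PGCLCs and 1.35 ± 0.229 CPM in untreated EpiLCs (4.40 ± 0.19, adjusted p = 7.7e-09), and Map6 lower (-1.30 ± 0.34, adjusted p = 0.00603). Of the other Six genes Six5 (1.51 ± 0.26, adjusted p = 0.00044) and Six4 (0.86 ± 0.19, adjusted p = 0.00236) were higher.

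Neural crest genes, which mark migratory cells from the neural plate border and several of which extraembryonic tissue also expresses, were higher in 7 of 8 cases in untreated PGCLCs, such as Ngfr (4.38 ± 0.21, adjusted p = 1.34e-08) and Msx1 (2.97 ± 0.27, adjusted p = 2.69e-06), with Sox10, a defining crest gene, not called (-1.16 ± 2.38, adjusted p = 0.704). Rest, which encodes the repressor of neuronal genes outside neurons, averaged 583 ± 26.7 CPM in untreated PGCLCs and 193 ± 51.0 CPM in untreated EpiLCs (1.60 ± 0.16, adjusted p = 6.16e-06). Of the 9 genes of its complex 6 were higher and Hdac1 was lower (-0.49 ± 0.08, adjusted p = 0.000176). The stage counts of the lists here are read beside the 30.4% higher and 25.2% lower of all genes. With BPA, Rest fell in PGCLCs (-0.35 ± 0.06, adjusted p = 0.0100), the 1 call of that list, and Ngfr was the 1 crest gene called (-0.69 ± 0.12, adjusted p = 0.0123), beside 5.72% of all genes lower. Both calls were lost without BPA replicate 1 or 2, and that of Rest also without untreated replicate 3 (adjusted p 0.0510 to 0.0548 for Rest, 0.0545 and 0.0671 for Ngfr). Of the secreted antagonists that protect neural fate, the Nodal antagonist gene Lefty1 was lower in untreated PGCLCs than in untreated EpiLCs (-4.14 ± 0.21, adjusted p = 2.02e-08), and the Wnt antagonist gene Dkk1 was at least 45.9-fold higher, with 2 of 6 called in each direction. With BPA 2 of these 6 fell in PGCLCs, Lefty1 (-0.74 ± 0.11, adjusted p = 0.0058) and Lefty2 (-0.75 ± 0.08, adjusted p = 0.00202).

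**Figure D4:**
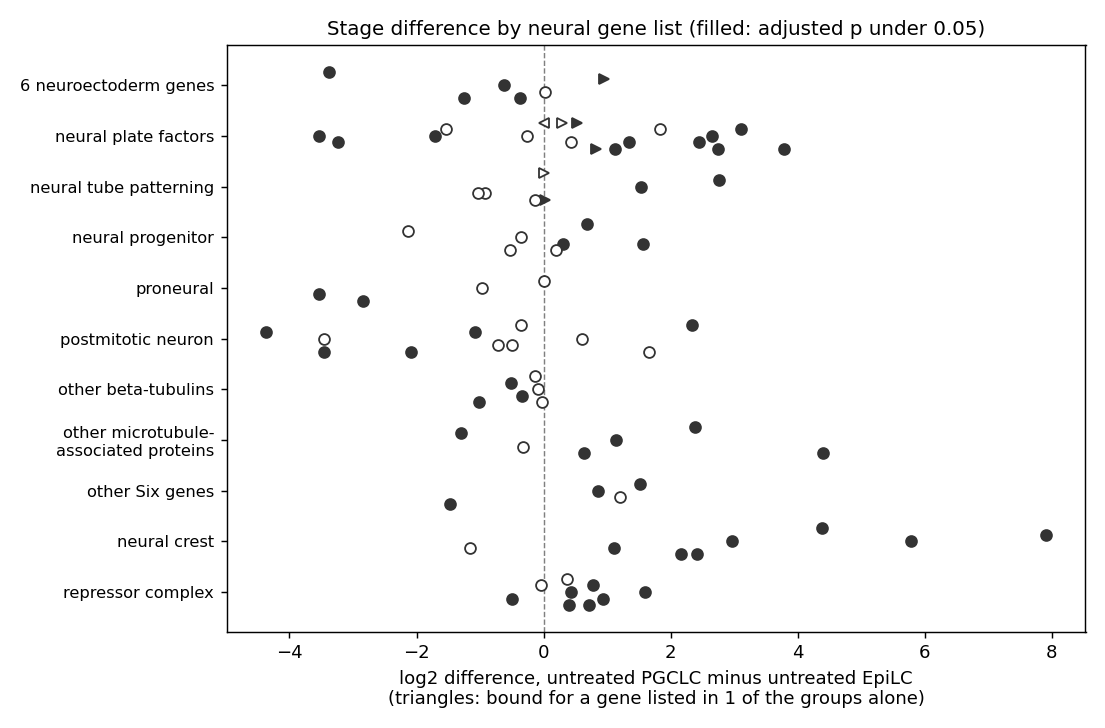
Log2 difference between untreated PGCLCs and untreated EpiLCs for every tested gene of the 6 members and 10 neural lists (rows); filled symbols have an adjusted p under 0.05 and triangles are bounds for genes listed in 1 of the groups alone. Of the neural plate factors 9 lie filled to the right and 3 to the left, and of the neural crest genes 7 to the right.

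In the BPA arm the counts of some lists differed from those of untreated cells. Other beta-tubulin genes were lower in 6 of 6 cases, beside 3 of 6 in untreated cells, and neuron genes in 7 of 11, beside 4 of 11. Neural plate factors were higher in 8 and lower in 4 of 18, neural crest genes higher in 7 of 8 and progenitor genes higher in 1 of 7. These counts are read beside the 25% lower and 32.5% higher of all genes in the BPA arm. With a library left out, 5 to 6 of the tubulin genes and 6 to 8 of the neuron genes were lower. Progenitor genes were then higher in 1 to 3 cases. In the test of the interaction itself 1 of the 6 other beta-tubulin genes and 0 of the 11 neuron genes were called.

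Over the 12 libraries the genes whose log2 CPM ran most like each member were taken as a description. The likeness was Pearson's r among 12901 coding genes averaging 1 CPM or more, and it rests mainly on the gap between the 2 stages, which separate. Most like Sox1 were Naa20 (0.997), Csn3 (0.996) and Slc1a5 (0.996), and most like Nes were Hspa9 (0.981), Pnma5 (0.981) and Kansl2 (0.979). Like Tubb3 ran Rbmx2 (0.965) and Sfrp4 (0.963). En2 ran with Kcnh2 (0.950), Ttc39c (0.948) and Hars2 (0.944), and Map2 with Nr3c1 (0.960), Hnrnph2 (0.933) and Map7d2 (0.930). Among the members themselves r was 0.957 between Sox1 and Nes and 0.516 between En2 and Map2. Of the 50-base stretches in exons, 0% of Nes, Tubb3 and En2, 0.166% of Map2, 0.774% of Sox1 and 3.31% of Six3 occur in another annotated gene.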

How the data were processed

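Libraries came from a strand-specific kit for mRNA, per the labels' protocols. The submitters' processing notes list the mm10 build and the tools STAR, HTSeq, FastQC and bcl2fastq 2.19.1.403; how the counting treated strand is not stated there. The deposited files hold whole-read counts per Ensembl gene, 1 file per library, without genes under 10 counts. Reads without a feature (4.42% to 10.7%) or ambiguous (4.35% to 6.07%) were kept out of all totals. The deposited CPM matrices, 1 per stage, equal these counts divided by a constant per library and served in an alternative within each stage.

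Of 21728 gene IDs 21695 matched GENCODE M21. After filterByExpr and TMM scaling, genes were tested by edgeR quasi-likelihood (edgeR 4.0.16 in R 4.3.3), unlisted genes as 0, with Benjamini-Hochberg adjustment over all genes tested (threshold 0.05). BPA effects were fitted within each stage (6 libraries), stage differences and their interaction in 1 fit of 12. The SE is the absolute log2 difference over the square root of F. A fold against a group that lists no count is a bound from 9 counts per library. Groups follow the sample titles; for untreated EpiLC replicate 3 title and description differ in the number.

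Named were the 6 members throughout, up to 4 called genes with the smallest p of each list, or the 1 with the smallest p, and the 3 genes most like each member. Tubb5, Tubb4a, Sox10, Dcx, Rbfox3, Snap25, Elavl4, Gap43, Nefm, Ina, Ncam1, Mesp1, Afp and Prdm14 were added after their values were seen. A few genes that this rule names are not reported here. The members and lists were chosen with earlier results of these data known. Alternatives were RLE factors, library size alone, 2 other filters, DESeq2 1.42.0, limma voom and limma-trend (limma 3.58.1, deposited CPM plus 1), unlisted genes as 9, replicate number as a block, fits of other libraries, and each library left out; those for genes of other lists were added after seeing the data. Scripts were tested on simulated data.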

Additional observations from a re-analysis of the deposited data

Results flagged for a closer look

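The BPA effect on Tubb2b, a beta-tubulin gene read beside Tubb3, was called as different between the stages. Its list was chosen with earlier results of these data known. The log2 difference between BPA and untreated libraries was -0.83 ± 0.07 in PGCLCs and -0.08 ± 0.13 in EpiLCs, and their difference was -0.74 ± 0.16 (edgeR quasi-likelihood interaction with Benjamini-Hochberg, adjusted p = 0.0445, lower in 3 of 3 BPA PGCLC libraries). Over all genes 1.32% were called in this comparison. With RLE factors or the replicate block 0 of the 6 other beta-tubulin genes were called, and with 1 library left out 0 to 3. The Tubb2b call was kept without untreated EpiLC replicate 3 or BPA PGCLC replicate 3 and lost without any other library.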

How the results depend on the processing

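Untreated EpiLC replicate 3 and BPA PGCLC replicate 3 stood apart from their groups. For the BPA effect in EpiLCs DESeq2 called 16 genes in place of 0. For that in PGCLCs 2321 genes were called, 668 to 1242 without any one library but BPA replicate 3 and 3206 without that one, and the members called ranged from 0 to 1. Between untreated stages 3 members were called with unlisted genes as 9 counts and 3 to 5 with a library left out. The interaction called 232 genes, and 897 by DESeq2, 141 by limma voom, 515 with unlisted genes as 9 and 83 to 767 with a library left out (767 without untreated EpiLC replicate 3, 744 without BPA PGCLC replicate 3, and 83 to 120 without untreated EpiLC replicate 1, any BPA EpiLC library or BPA PGCLC replicate 1 or 2). Same-numbered libraries did not pair in PGCLCs (r of their deviations 0.0191, -0.0168 and -0.0540). In EpiLCs these r were 0.0997, 0.157 and 0.281, beside -0.329 to 0.173 for differently numbered libraries, so some pairing there is not excluded. With the replicate block 94 interaction genes were called, and Tubb3 kept its BPA call in PGCLCs (adjusted p = 0.0334). En2 then lost its stage calls (-1.21, adjusted p = 0.0975, untreated, and -1.40, adjusted p = 0.0632, BPA arm). Signs of values that were not called turned with a library left out: the BPA effect in EpiLCs spanned -0.0816 to 0.186 for En2 and -0.0029 to 0.126 for Nes, that in PGCLCs -0.390 to 0.352 for En2, and the interaction -0.421 to 0.319 for En2. The untreated stage difference of Map2 turned with RLE factors (-0.0451), DESeq2 (-0.0444), limma voom (-0.0549), a fit of the 6 untreated libraries (-0.0182) and spanned -0.269 to 0.256 with a library left out. The causes were not tested. No called direction turned. Levels under 0.740 CPM are not resolved in the shallowest EpiLC library.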
